A study of Rattus norvegicus with 24 samples.

Results

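The genes described here peaked at postnatal day 6 (P6) in wild-type rat sciatic nerve, and were selected on the wild-type columns of an RNA-sequencing count table. A gene was chosen when its P6 wild-type mean was at least 10 CPM (counts relative to library size, scaled by the trimmed mean of M-values over all 24 libraries) and at least 2 times both the wild-type mean at embryonic day 21 (E21) and the wild-type mean at postnatal day 18 (P18). The rule gave 51 of 32402 genes, out of 9386 genes that reached 10 CPM at P6, and all 51 passed the count filter for testing. PolyA RNA was sequenced from whole sciatic nerve, with the epineurium removed, of wild-type rats (Wt) and Pmp22 transgenic rats (Tg), a model of Charcot-Marie-Tooth disease 1A that carries extra copies of Pmp22. Each genotype was sampled at E21, P6 and P18 with 4 biological replicates a group, and the total count of a library ranged from 9700631 to 25164842. The comparisons asked whether genes with a transient peak in Wt nerve followed the same course in the Tg columns, which the rule did not use.

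Around birth, Schwann cells sort axons, leave the cell cycle and start to wrap single axons, and myelin is then made fastest in the early postnatal weeks. Genes switched on for this transition include transcription factors of the promyelinating stage, adhesion and guidance receptors, and channels and junction proteins of the young sheath, and some of them are turned down again once the sheath has formed. The POU factor Pou3f2 acts beside its relative Pou3f1 in promyelinating Schwann cells, and neurofilament transcripts, best known from neurons, can also be made by Schwann cells.

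Pmp22 was read before the members as a check of the genotype labels. In the Wt libraries Pmp22 was at 1392, 1309, 1261 and 1259.8 CPM at E21, at 22924, 23991, 22820.4 and 22671 CPM at P6, and at 44516, 45596.5, 46154.5 and 46349 CPM at P18. In the libraries labelled Tg Pmp22 was at 1555, 1661, 1401 and 1617 CPM at E21, at 26462, 23982, 24039 and 24864 CPM at P6, and at 23885, 25212, 24929 and 24535 CPM at P18. At E21 the libraries labelled Tg lay above those labelled Wt, at P6 the groups overlapped, and at P18 all 4 libraries labelled Tg lay below all 4 labelled Wt, against the direction of the label. The locus AC130064.1 separated the labels at every age: it had 0 counts in every Wt library except 1 count in P18 Wt replicate 1, while the libraries labelled Tg had 7 to 13 counts at E21, 223 to 276 at P6 and 152 to 184 at P18. Nerve genes with a known course did not peak at P6 in Wt: the mean of Mbp, a myelin protein, was 616, 16958 and 22459 CPM at E21, P6 and P18. In the libraries labelled Tg the means of Mbp were 685, 13541 and 11191 CPM. Egr2, the transcription factor of myelination, had means of 9.21, 221 and 353 CPM in Wt and 10.8, 229 and 364 CPM in Tg, with no fall between P6 and P18 in either genotype. Ngfr, the neurotrophin receptor of immature Schwann cells, went from 336 to 111 and 44.7 CPM in Wt and from 368 to 101 and then 208 CPM in Tg. The proliferation gene Mki67 fell from 446 to 118 and 30.8 CPM in Wt and from 459 to 143 and 59.5 CPM in Tg.

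In Wt, where the values chose the members, the course is a description with no test. The 4 P6 libraries lay above the 4 E21 libraries for 48 members, the 4 P18 libraries lay below the 4 P6 libraries for 44, and both held for 43. The P18 mean was at most 49.4% of the P6 mean, as the rule required, and its median over the members was 33.7%. The members nearest the fold limit were Depdc7, Lrrtm2 and LOC100911672, whose smaller ratio was 2.01, 2.02 and 2.03, and the genes just outside it were Srgap1, Myrf and Rhbdf2, at 1.99, 1.97 and 1.97. Nearest the level limit were AABR07055333.1, LOC100911672 and Lrrtm2 with P6 Wt means of 10.05, 10.4 and 10.6 CPM, and just outside were Comp, LOC689166 and AABR07056330.1 at 9.60, 9.40 and 9.29 CPM. P18 Wt replicate 3, the library with the lowest total count, weighed on membership: without it 43 genes met the rule, of which 41 were members, and Depdc7, Irf7, Tpsab1, Lppr3, Oas1f, Lrrtm2, Tsc22d4, AABR07042821.1, AABR07055333.1 and LOC100911672 did not. Cdh6, Cpm, Dusp16, Fcrl2, Kcnj11, Kif26b, Oas1f, Rgs22, Slitrk5, LOC100912399 and RGD1306271 fell outside the rule for naming genes and were chosen after their values were seen.

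**Figure D1:**
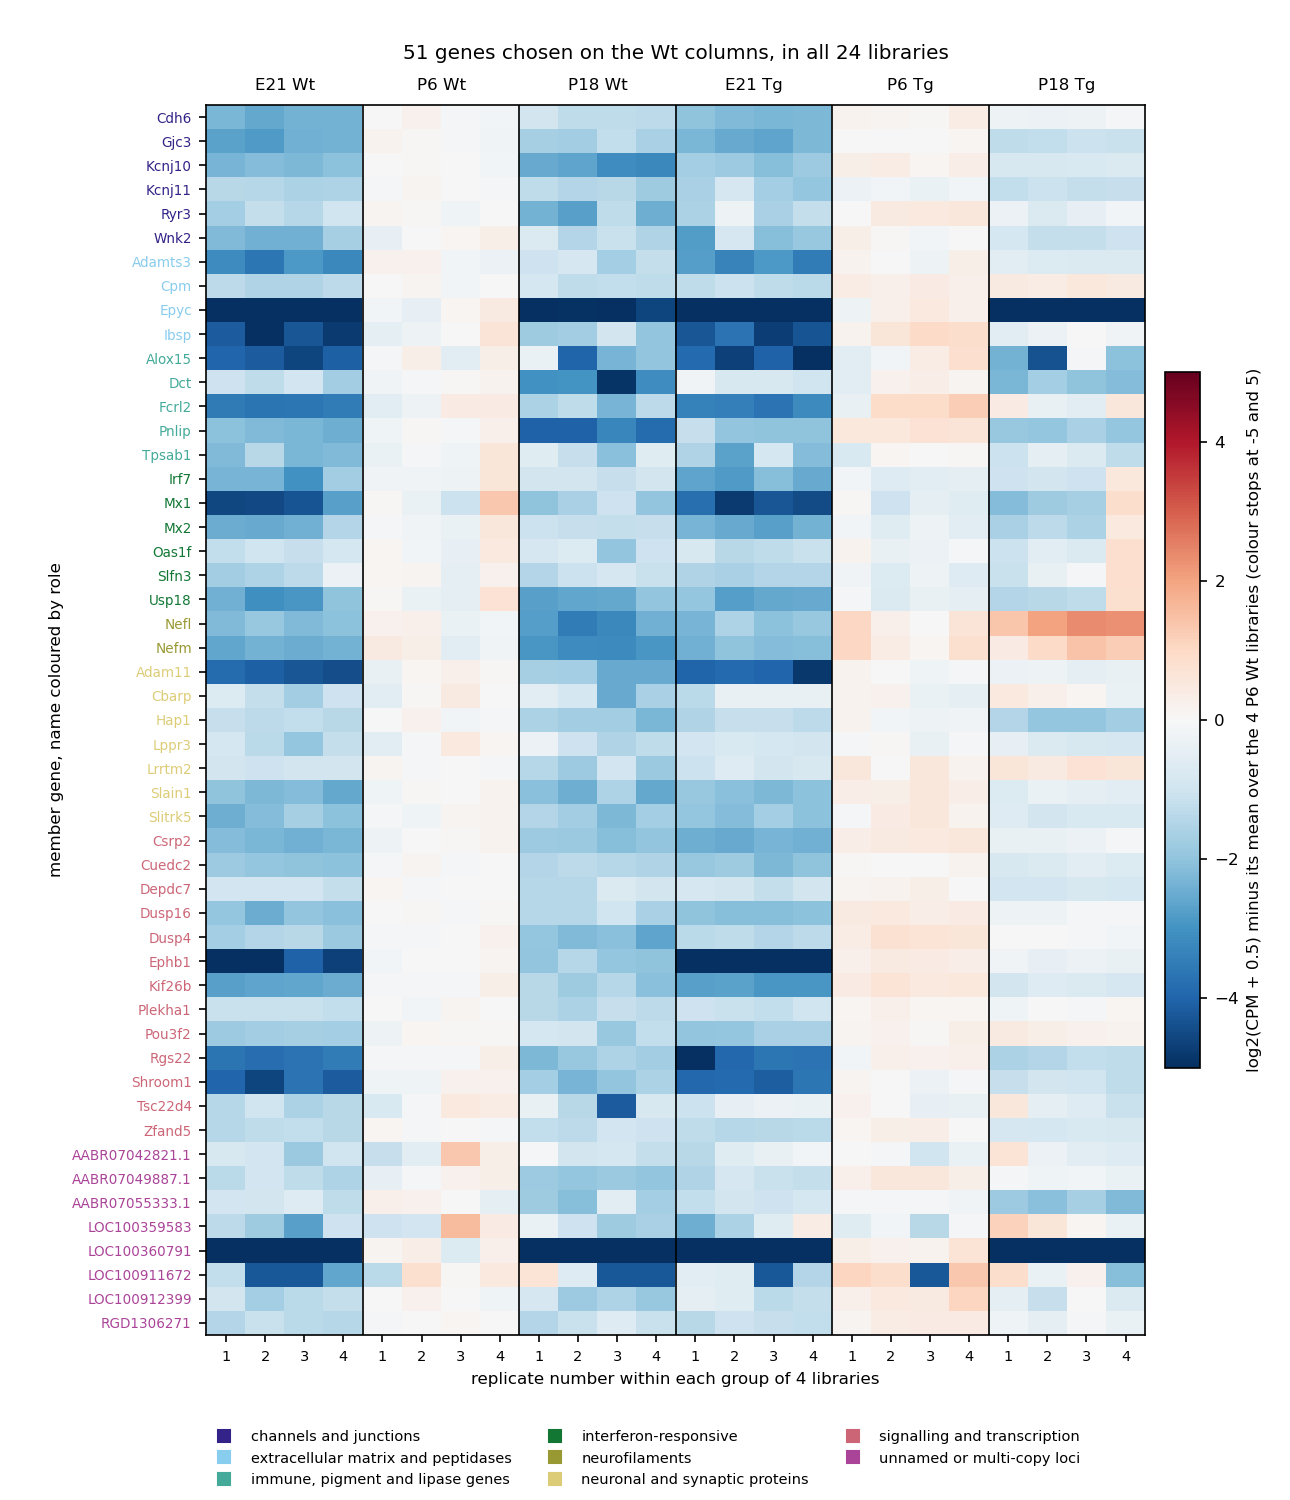
Each line of the map is a member, each column a library (4 replicates in each of 6 groups), and the colour is log2(CPM + 0.5) minus its mean over the 4 P6 Wt libraries, with gene names coloured by role. Blue marks values below P6 Wt, which fill the E21 columns of both genotypes and the P18 Wt columns, and the P18 Tg block is paler than the P18 Wt block for most members, with Nefl and Nefm red in P18 Tg.

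The rise from E21 to P6 was present in the Tg columns for most members. By edgeR quasi-likelihood tests with Benjamini-Hochberg adjustment over 15951 genes, 46 of the 51 members were higher at P6 than at E21 in Tg, where 26.5% of all genes tested were higher. The median log2 change over the members was 2.08, beside 0.00 over all genes tested, and for 45 members the 4 P6 Tg libraries lay above the 4 E21 Tg libraries, beside 25.5% of all genes tested. Tsc22d4, Cbarp, LOC100359583, LOC100911672 and AABR07042821.1 were not called in this contrast.

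The fall from P6 to P18 was weaker than the rule asked of Wt for most members in Tg. The rule fixed the least size of the Wt fall, so a weaker fall in Tg can follow from the choice of members alone. How far it does was not tested. By the same edgeR quasi-likelihood tests with Benjamini-Hochberg adjustment, 31 members were lower at P18 than at P6 in Tg, beside 17.9% of all genes tested. In the other direction 1 member, Nefl, was higher, beside 17.9% of all genes tested, and the remaining 19 were not called. This contrast shares the P6 Tg libraries with the rise from E21, so the counts are given side by side. The median log2 change over the members was -0.74, beside -0.01 over all genes tested, and for 31 members the 4 P18 Tg libraries lay below the 4 P6 Tg libraries, beside 19.5% of all genes tested. The P18 Tg mean was 60.3% of the P6 Tg mean in the median member, ranged from 0% to 286%, and was above 50% for 34 members and above 100% for 10. The P6 Tg mean was at least 2 times the E21 Tg mean for 44 members, beside 10.5% of all genes tested, and at least 2 times the P18 Tg mean for 17, beside 4.79%. The same rule applied to Tg means was met by 15 members, beside 0.244% of all genes tested: Zfand5, LOC100360791, Gjc3, Depdc7, Alox15, Epyc, Hap1, Kcnj10, Pnlip, Rgs22, Kif26b, Wnk2, Slitrk5, LOC100912399 and Shroom1. These are whole nerves, so fewer cells of a type and less RNA per cell cannot be told apart in any of these changes.

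**Figure D2:**
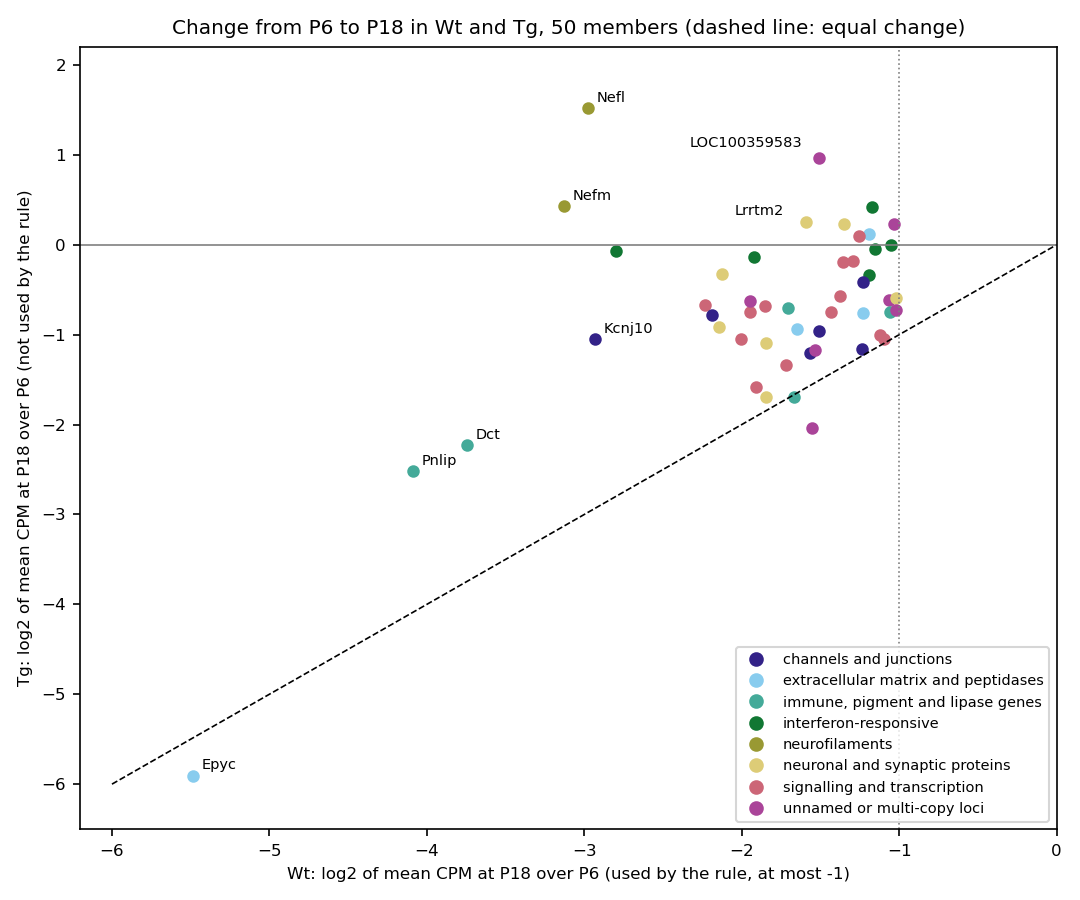
Each point is 1 of 50 members with nonzero means, placed by the log2 ratio of the P18 mean to the P6 mean in Wt (x, used by the rule) and in Tg (y, not used by the rule), coloured by role. Most points lie above the dashed line of equal change, Nefl is the highest, and Epyc lies just below the line. The rule bounded x and not y, so points above the line can follow from the choice of members.

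Members are described by role, and the roles were set after the values were seen, so counts by role are descriptions. For channels and junctions, 6 of 6 members rose from E21 to P6 in Tg, beside 26.5% of all genes tested. From P6 to P18, 6 of 6 fell in Tg, beside 17.9% of all genes tested. Gjc3 encodes a gap junction protein of myelinating glia. In Wt Gjc3 was at 21.5, 19.6, 26.1 and 27.2 CPM at E21, at 159, 147, 136 and 125 CPM at P6, and at 43.9, 41.4, 60.4 and 45.3 CPM at P18. In Tg Gjc3 was at 28.9, 24.04, 22.3 and 29.5 CPM at E21, at 143, 142, 139 and 151 CPM at P6, and at 58.0, 60.6, 66.3 and 64.6 CPM at P18. The P6 libraries were the high ones in both genotypes, and the P18 Tg and P18 Wt libraries overlapped. The log2 change of Gjc3 in Tg was 2.46 from E21 to P6 (SE 0.12, adjusted p 5.74e-14) and -1.20 from P6 to P18 (SE 0.11, adjusted p 1.99e-08) by edgeR quasi-likelihood with Benjamini-Hochberg adjustment, in 4 of 4 libraries each time.

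Kcnj10, an inwardly rectifying potassium channel of glia, kept more of its P6 level at P18 in Tg (48.3%) than in Wt (13.1%). In Wt Kcnj10 was at 9.13, 10.3, 9.90 and 11.2 CPM at E21, at 48.5, 50.9, 49.3 and 44.4 CPM at P6, and at 8.001, 7.41, 5.201 and 4.71 CPM at P18. In Tg it was at 14.6, 13.5, 10.6 and 13.5 CPM at E21, at 59.0, 62.4, 52.1 and 60.0 CPM at P6, and at 27.7, 27.1, 28.5 and 29.4 CPM at P18. All P18 libraries were below all P6 libraries in both genotypes, and every P18 Tg library was above every P18 Wt library. The log2 change of Kcnj10 in Tg was 2.16 up to P6 (adjusted p 7.92e-13) and -1.05 after it (adjusted p 2.18e-07) by edgeR quasi-likelihood with Benjamini-Hochberg adjustment, and the ratio of Tg to Wt at P18 was 4.45.

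Ryr3, a calcium release channel, Wnk2, a kinase that controls ion cotransporters, and Kcnj11, a potassium channel subunit, had their highest E21 Tg value in replicate 2, at 19.7, 12.3 and 16.8 CPM. That library also had the highest sum over the 25 tested skeletal muscle markers, 6160 CPM, where Acta1 was the most abundant gene. The other muscle marker sums at E21 were 58.5, 981 and 65.5 CPM in Tg replicates 1, 3 and 4 and 44.3, 2533, 63.1 and 3779 CPM in Wt replicates 1 to 4. At P6 the muscle sums were 302, 170.4, 83.6 and 77.1 CPM in Wt and 218, 75.4, 113 and 75.3 CPM in Tg. At P18 they were 128, 719, 72.7 and 73.7 CPM in Wt and 97.2, 52.9, 53.1 and 54.4 CPM in Tg. Muscle markers were thus uneven among E21 libraries, and none on the list was at 0 in every library. Without E21 Tg replicate 2 the rise to P6 in Tg was 1.86 in place of 1.47 for Ryr3, as log2. It was 2.37 in place of 1.87 for Wnk2 and 1.54 in place of 1.26 for Kcnj11. These genes were set together because that library was their highest at E21 in Tg. A larger rise without it thus follows from the choice and tests nothing about muscle RNA. Ryr3 fell in Tg by 0.78 on the log2 scale from P6 to P18 with an adjusted p of 0.0296 (edgeR quasi-likelihood, Benjamini-Hochberg), and the call was lost without P18 Tg replicate 2 or 3 or P6 Tg replicate 2, 3 or 4, for example without P18 Tg replicate 2 (-0.68, adjusted p 0.0904). Cdh6, a cadherin, rose by 2.51 and then fell by 0.41 on the log2 scale in Tg.

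Of the 2 neurofilament members, both rose to P6 in Tg, and Nefl was the member called higher at P18 than at P6, beside 26.5% and 17.9% of all genes tested. Nefl, the light neurofilament subunit, was at 26.6, 33.2, 26.4 and 29.1 CPM at E21, at 143, 146, 98.7 and 113 CPM at P6, and at 17.8, 10.5, 12.9 and 22.7 CPM at P18 in Wt. In Tg Nefl was at 24.3, 41.7, 29.7 and 33.3 CPM at E21, at 251, 149, 126 and 195 CPM at P6, and at 324, 501, 643 and 599 CPM at P18. The genotypes overlapped at E21 and at P6, whereas at P18 every Tg library was above every other library of the series and every Wt library was below all P6 libraries. The log2 change of Nefl in Tg was 2.48 from E21 to P6 (SE 0.24, adjusted p 1.29e-08) and 1.52 from P6 to P18 (SE 0.23, adjusted p 1.75e-05) by edgeR quasi-likelihood with Benjamini-Hochberg adjustment. The ratio of Tg to Wt means at P18 was 32.4.

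Nefm, the medium subunit, was not called after P6. In Wt Nefm was at 17.3, 20.7, 18.9 and 20.2 CPM at E21, at 146, 130.2, 73.0 and 95.7 CPM at P6, and at 13.9, 11.6, 11.5 and 13.9 CPM at P18. In Tg it was at 19.96, 26.5, 23.4 and 23.99 CPM at E21, at 218, 140.1, 116 and 186 CPM at P6, and at 144, 206, 286 and 252 CPM at P18. The P6 and P18 Tg libraries overlapped and both stood far above P18 Wt. In Tg the log2 change of Nefm was 2.81 up to P6 (adjusted p 2.79e-10) and 0.43 after it (SE 0.20, adjusted p 0.103) by edgeR quasi-likelihood with Benjamini-Hochberg adjustment. The change after P6 passed the threshold without P18 Tg replicate 1 (0.59, adjusted p 0.0224) or without P6 Tg replicate 1 (0.59, adjusted p 0.0342). The ratio of Tg to Wt means at P18 was 17.5.

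The list of axon and neuron markers held 20 genes, of which 16 were tested and Nefl and Nefm were members, and by edgeR 4 of the 16 were higher and 8 lower at P6 than at E21 in Tg, and 1 was higher and 5 lower at P18 than at P6. Those higher at P6 were Nefl, Nefm, Nefh and Elavl3, and Nefh and Elavl3 were among the 5 lower at P18. The summed level of the list was 111, 96.4, 109 and 91.4 CPM in the P18 Wt libraries and 533, 768, 996 and 922 CPM in the P18 Tg libraries, with Nefl the most abundant gene. At P6 it was 387, 372, 288 and 310.0 CPM in Wt and 569, 408, 367 and 477 CPM in Tg, and at E21 it was 246, 247, 229 and 227 CPM in Wt and 212, 248, 239.5 and 251 CPM in Tg. No gene of the list was at 0 in every library. The heavy subunit Nefh had means of 2.90 CPM in P18 Wt and 3.04 CPM in P18 Tg, Prph had 3.93 and 2.44 CPM, Tubb3 had 13.6 and 7.07 CPM, Stmn2 had 7.08 and 4.63 CPM, Uchl1 had 9.91 and 5.39 CPM, and Ina had 0.185 and 0.222 CPM. The part of axonal RNA in the neurofilament values was not tested.

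**Figure D3:**
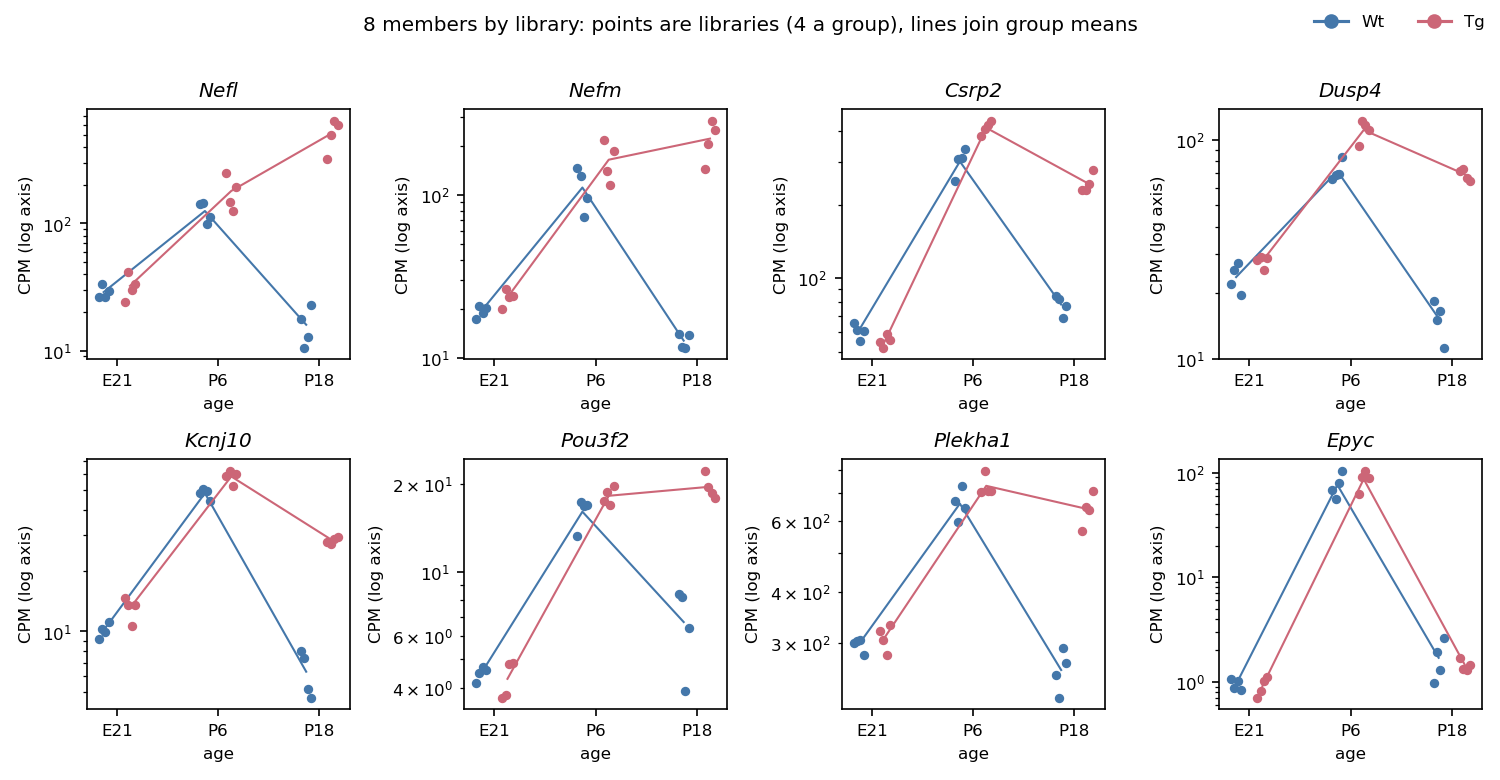
CPM on a log axis against age for 8 members, with a point for each library (4 a group) and lines joining the group means, Wt in blue and Tg in red. At P18 the Tg points lie above the Wt points in every panel except that of Epyc, and Nefl in Tg reaches 324 to 643 CPM.

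Of the 7 members for neuronal and synaptic proteins, 6 rose to P6 and 4 fell after it in Tg, beside 26.5% and 17.9% of all genes tested. Lrrtm2, an organizer of synapses, was at 5.36, 4.90, 5.42 and 5.41 CPM at E21, at 11.8, 10.1, 10.5 and 10.1 CPM at P6, and at 3.69, 2.65, 5.201 and 2.54 CPM at P18 in Wt. In Tg Lrrtm2 was at 4.84, 6.69, 5.38 and 5.97 CPM at E21, at 16.1, 10.5, 16.1 and 12.2 CPM at P6, and at 16.6, 14.7, 17.9 and 16.4 CPM at P18. The P18 Tg libraries stayed at the P6 level and overlapped it, and all were above P18 Wt. Its log2 change in Tg was 1.26 to P6 (adjusted p 1.08e-06) and 0.26 from P6 to P18 (adjusted p 0.224) by edgeR quasi-likelihood with Benjamini-Hochberg adjustment.

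Hap1, the huntingtin-associated protein, peaked in both genotypes. In Wt Hap1 was at 21.7, 19.3, 20.6 and 18.4 CPM at E21, at 49.4, 56.5, 44.9 and 46.4 CPM at P6, and at 16.2, 14.3, 14.5 and 9.73 CPM at P18. In Tg it was at 17.02, 21.9, 21.9 and 19.4 CPM at E21, at 55.0, 44.3, 41.3 and 43.1 CPM at P6, and at 17.3, 12.7, 12.4 and 14.5 CPM at P18. The P6 libraries stood apart from the rest and the genotypes overlapped at each age. Hap1 fell by 1.69 on the log2 scale from P6 to P18 in Tg (adjusted p 2.03e-09, edgeR quasi-likelihood with Benjamini-Hochberg adjustment).

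The microtubule-associated Slain1 and the synaptic adhesion protein Slitrk5 fell in Tg by 0.91 and 1.09 on the log2 scale from P6 to P18, and their P18 Tg libraries were all above P18 Wt. Adam11, a catalytically inactive ADAM protein of neurons, rose by 4.58 in Tg and then changed by -0.33 (adjusted p 0.214, edgeR quasi-likelihood with Benjamini-Hochberg adjustment). The 4 P18 Tg values of Adam11, 22.5, 22.9, 20.2 and 21.3 CPM, lay below the 4 P6 Tg values, 31.4, 27.9, 23.9 and 26.0 CPM, and above the P18 Wt values, 8.53, 8.31, 4.49 and 4.39 CPM. Lppr3, a phospholipid phosphatase relative, fell in Tg by 0.60 (adjusted p 0.046, by the same edgeR test), a call that was lost without P18 Tg replicate 2, 3 or 4 or P6 Tg replicate 1, 2 or 4, for example without P6 Tg replicate 2 (-0.54, adjusted p 0.109).

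Of the 13 members for signalling and transcription, 12 rose to P6 and 10 fell after it in Tg, beside 26.5% and 17.9% of all genes tested. Csrp2 encodes a LIM-domain protein of the actin cytoskeleton. In Wt it was at 65.7, 61.2, 55.3 and 60.8 CPM at E21, at 249, 306, 309 and 337 CPM at P6, and at 84.3, 82.1, 68.7 and 76.6 CPM at P18. In Tg Csrp2 was at 54.8, 51.7, 58.8 and 55.7 CPM at E21, at 380.2, 407, 422 and 441 CPM at P6, and at 230.1, 229.9, 243 and 276 CPM at P18. The E21 values overlapped between genotypes, and at P6 and P18 every Tg library was above every Wt library. Csrp2 changed in Tg by a log2 of 2.90 (SE 0.09, adjusted p 2.42e-17) and then -0.75 (SE 0.08, adjusted p 2.03e-07) by edgeR quasi-likelihood with Benjamini-Hochberg adjustment, and the ratio of Tg to Wt at P18 was 3.14.

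The phosphatase gene Dusp4, which acts on MAP kinases, was at 21.9, 25.4, 27.3 and 19.6 CPM at E21, at 66.0, 68.6, 69.9 and 82.8 CPM at P6, and at 18.3, 15.1, 16.5 and 11.2 CPM at P18 in Wt. In Tg Dusp4 was at 28.2, 29.04, 25.5 and 28.8 CPM at E21, at 93.9, 122, 116 and 110.1 CPM at P6, and at 71.7, 73.5, 67.0 and 65.0 CPM at P18. P18 Tg values were within the range of P6 Wt or just under it, while P18 Wt values were below E21. Dusp4 fell by 0.67 on the log2 scale from P6 to P18 in Tg (adjusted p 6.45e-05, edgeR quasi-likelihood with Benjamini-Hochberg adjustment), and its ratio of Tg to Wt at P18 was 4.54. The related phosphatase gene Dusp16 had a ratio of 2.33.

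The POU-domain factor Pou3f2 was at 4.14, 4.48, 4.70 and 4.60 CPM at E21, at 13.2, 17.3, 16.8 and 16.9 CPM at P6, and at 8.35, 8.19, 3.90 and 6.42 CPM at P18 in Wt. In Tg Pou3f2 was at 3.70, 3.78, 4.83 and 4.86 CPM at E21, at 17.5, 18.7, 16.9 and 19.7 CPM at P6, and at 22.2, 19.5, 18.6 and 17.9 CPM at P18. The P18 Tg libraries overlapped P6 Tg and were all above P18 Wt. The log2 change in Tg was 2.08 to P6 (adjusted p 1.76e-10) and 0.10 after it (SE 0.15, adjusted p 0.644) by edgeR quasi-likelihood with Benjamini-Hochberg adjustment, and the ratio of Tg to Wt at P18 was 2.91.

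Plekha1, which binds membrane phosphoinositides, was at 301, 303, 305 and 281 CPM at E21, at 671, 597, 728 and 645 CPM at P6, and at 251, 220.3, 292 and 268 CPM at P18 in Wt. In Tg Plekha1 was at 322, 306, 281 and 333 CPM at E21, at 704, 796, 710.3 and 710.5 CPM at P6, and at 567, 646, 638 and 709.5 CPM at P18. Wt returned to the E21 level or under it and Tg did not, and the P6 and P18 Tg libraries overlapped. The change in Tg after P6 was -0.19 (adjusted p 0.0719) by edgeR quasi-likelihood with Benjamini-Hochberg adjustment and was called by DESeq2, with an adjusted p of 0.0447, and by edgeR without P18 Tg replicate 4 (-0.24, adjusted p 0.0313).

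Ephb1, a receptor for ephrins, was at 1.33, 1.06, 3.32 and 2.01 CPM at E21, at 57.5, 62.0, 63.6 and 68.9 CPM at P6, and at 15.5, 23.0, 16.1 and 15.2 CPM at P18 in Wt. In Tg Ephb1 was at 0.925, 0.436, 1.38 and 0.984 CPM at E21, at 74.5, 85.9, 83.5 and 79.0 CPM at P6, and at 55.0, 46.9, 50.6 and 49.0 CPM at P18. At P6 and P18 the Tg libraries were all above the Wt libraries. Ephb1 rose in Tg by 6.42 and fell by 0.68 on the log2 scale (adjusted p 1.48e-15 and 0.00443, edgeR quasi-likelihood with Benjamini-Hochberg adjustment).

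The ubiquitin-binding Cuedc2 fell in Tg from a mean of 553 to 329.9 CPM, a log2 change of -0.75, and in Wt from 528 to 195 CPM. Zfand5, a zinc finger protein of the proteasome pathway, went from 276 to 138 CPM in Tg and from 243 to 112 CPM in Wt, and Depdc7 went from 119 to 57.7 CPM in Tg and from 108 to 50.3 CPM in Wt. Rgs22, Kif26b and the actin-binding Shroom1 fell in Tg by 1.58, 1.33 and 1.05 on the log2 scale. Zfand5 and Depdc7 thus fell about as far in Tg as in Wt, beside genes of the same role that barely fell.

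Of the 4 members for extracellular matrix and peptidases, 4 rose to P6 and 3 fell after it in Tg, beside 26.5% and 17.9% of all genes tested. Epyc, a small leucine-rich proteoglycan, was at 1.06, 0.885, 1.01 and 0.840 CPM at E21, at 67.5, 55.6, 78.6 and 103 CPM at P6, and at 0.967, 1.93, 1.30 and 2.61 CPM at P18 in Wt. In Tg Epyc was at 0.707, 0.824, 1.01 and 1.11 CPM at E21, at 62.7, 89.8, 104 and 89.5 CPM at P6, and at 1.69, 1.32, 1.31 and 1.46 CPM at P18. Only the P6 libraries were high, and the genotypes overlapped at each age. Epyc changed in Tg by a log2 of 6.56 (adjusted p 5.68e-16) and -5.91 (adjusted p 4.25e-14) by edgeR quasi-likelihood with Benjamini-Hochberg adjustment.

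Ibsp, the bone sialoprotein, was at 1.25, 2.13, 0.782 and 1.17 CPM at E21, at 37.9, 50.9, 65.0 and 60.8 CPM at P6, and at 21.9, 27.0, 33.7 and 29.2 CPM at P18 in Tg, and at 9.32, 9.64, 17.3 and 8.08 CPM at P18 in Wt. The P18 Tg libraries were below P6 Tg and above P18 Wt. Its fall in Tg was -0.94 (adjusted p 0.00829, edgeR quasi-likelihood with Benjamini-Hochberg adjustment). Adamts3, which trims procollagens, fell in Tg by 0.77, and the carboxypeptidase gene Cpm changed by 0.12 (adjusted p 0.327, by the same edgeR test) and was at 42.0, 40.1, 44.6 and 42.0 CPM in P18 Tg, above the 16.7, 12.5, 12.8 and 12.6 CPM of P18 Wt. Of the 17 tested markers of tendon, cartilage and bone, which include Ibsp, 5 were higher and 2 lower at P6 than at E21 in Tg, and 5 were higher and 6 lower at P18 than at P6. The summed level of these markers, with Col2a1 the most abundant, was 377, 552, 447 and 471 CPM at E21, 1155, 1115, 994 and 1015 CPM at P6, and 948, 869, 693 and 616 CPM at P18 in Tg. In Wt the sums were 441, 432, 307 and 403 CPM at E21, 895, 1145, 1585 and 1393 CPM at P6, and 1578, 1383, 907 and 1051 CPM at P18. No marker of that list was at 0 in every library, and the part of such tissue in the Ibsp values was not tested.

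Of the 5 members for immune cells, pigment and lipid cleavage, 5 rose to P6 and 3 fell after it in Tg, beside 26.5% and 17.9% of all genes tested. Pnlip, the pancreatic type of lipase, was at 7.54, 6.73, 6.21 and 5.62 CPM at E21, at 28.01, 33.9, 30.6 and 39.1 CPM at P6, and at 1.49, 1.51, 2.96 and 1.78 CPM at P18 in Wt. In Tg Pnlip was at 14.5, 7.95, 7.68 and 7.69 CPM at E21, at 47.3, 46.9, 53.9 and 50.8 CPM at P6, and at 8.36, 8.13, 10.2 and 8.07 CPM at P18. The Tg libraries were above the Wt libraries at all 3 ages. Its fall in Tg was -2.52 (adjusted p 4.08e-10, edgeR quasi-likelihood with Benjamini-Hochberg adjustment), and the ratio of Tg to Wt at P18 was 4.49.

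Dct, an enzyme of melanin synthesis, was at 15.8, 9.89, 10.03 and 8.73 CPM at E21, at 12.1, 20.8, 22.6 and 19.7 CPM at P6, and at 3.30, 5.10, 4.06 and 3.62 CPM at P18 in Tg. The E21 and P6 Tg libraries overlapped, and the P18 Tg libraries were the lowest. Its rise in Tg was 0.76 (adjusted p 0.0183) and its fall -2.22 (adjusted p 1.84e-06) by edgeR quasi-likelihood with Benjamini-Hochberg adjustment, and the call of the rise was lost without E21 Tg replicate 2, 3 or 4 or P6 Tg replicate 2 or 3, for example without E21 Tg replicate 4 (0.64, adjusted p 0.0685). Of 9 melanocyte genes, a list added after the values were seen, 6 were tested, of which 3 were higher and 1 lower at P6 than at E21 in Tg and 1 was higher and 3 lower at P18 than at P6. The melanocyte markers Tyr and Mlana had means of at most 0.160 and 0.0646 CPM in any group. The summed level of the melanocyte list, with Slc24a5 the most abundant, was 115, 125, 119 and 102 CPM at E21, 164, 148, 168 and 167 CPM at P6, and 91.9, 76.2, 99.4 and 96.1 CPM at P18 in Wt. In Tg it was 135, 121, 114 and 131 CPM at E21, 159.8, 180.3, 200.3 and 156 CPM at P6, and 92.1, 99.3, 97.5 and 98.0 CPM at P18.

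The tryptase gene Tpsab1, a mast cell product, was at 13.3, 5.53, 20.6 and 8.06 CPM at E21, at 22.2, 41.2, 38.1 and 40.1 CPM at P6, and at 17.6, 28.2, 22.7 and 15.7 CPM at P18 in Tg. Its change after P6 was -0.75 (adjusted p 0.0981, edgeR quasi-likelihood with Benjamini-Hochberg adjustment), and P6 and P18 libraries overlapped. Of 16 tested markers of mast cells and granulocytes, 10 were higher and 2 lower at P6 than at E21 in Tg, and 8 were lower at P18 than at P6, among them Cpa3, at means of 107 and 40.1 CPM, and Cma1, at 90.4 and 34.7 CPM. The sum of this list, with Mcpt1l1 the most abundant, was 73.4, 127, 96.0 and 87.3 CPM at E21, 319, 384, 339 and 525 CPM at P6, and 351, 358, 319 and 429 CPM at P18 in Wt. In Tg it was 108, 52.5, 220.1 and 68.9 CPM at E21, 273, 463, 532 and 520.3 CPM at P6, and 264, 293, 215 and 243 CPM at P18. No mast cell marker was at 0 in every library. The part of mast cells in the Tpsab1 values was not tested. Alox15, a lipoxygenase, was at 51.1, 68.9, 97.3 and 134 CPM at P6 and at 14.2, 3.21, 73.0 and 18.02 CPM at P18 in Tg. P18 Tg replicate 3 lay within the P6 range. The fall of Alox15, -1.69 with an adjusted p of 0.0406 (edgeR quasi-likelihood, Benjamini-Hochberg), was lost without P18 Tg replicate 1, 2 or 4 or P6 Tg replicate 3 or 4, for example without P18 Tg replicate 2 (-1.32, adjusted p 0.0987), and was -2.91 (adjusted p 0.000993) without P18 Tg replicate 3. Fcrl2, an Fc receptor relative, was at 13.9, 35.3, 34.5 and 43.5 CPM at P6 and at 24.5, 14.1, 12.3 and 27.3 CPM at P18 in Tg, a change of -0.71 with an adjusted p of 0.0664 by the same test and of 0.0308 without P18 Tg replicate 4 (-0.91) and 0.00731 without P6 Tg replicate 1 (-0.95).

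The 6 interferon-responsive members, which encode antiviral proteins and their regulators, each had replicate 4 as the highest library of E21 Wt, of P6 Wt and of P18 Tg, though by little for Oas1f at E21 and for Slfn3 at P6. RefSeq promoter windows (build GRCr8, 250 bases before to 50 after the gene start) were available for 4 of them and are shown because these genes shared their highest library in 3 groups. Capitals mark a match to TTTC, any 2 bases and TTTC again, a motif of interferon regulatory factors, searched on both strands. It was found only in Irf7, with its leading base at -69 from the start.
Irf7, chr1:205799974-205800273, minus strand: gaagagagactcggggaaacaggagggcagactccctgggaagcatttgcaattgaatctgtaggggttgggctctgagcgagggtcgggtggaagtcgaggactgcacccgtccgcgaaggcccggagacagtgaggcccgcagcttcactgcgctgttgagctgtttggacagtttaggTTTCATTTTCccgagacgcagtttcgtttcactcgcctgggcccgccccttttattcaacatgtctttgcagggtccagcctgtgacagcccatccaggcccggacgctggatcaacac
Mx1, chr11:50294557-50294856, minus strand: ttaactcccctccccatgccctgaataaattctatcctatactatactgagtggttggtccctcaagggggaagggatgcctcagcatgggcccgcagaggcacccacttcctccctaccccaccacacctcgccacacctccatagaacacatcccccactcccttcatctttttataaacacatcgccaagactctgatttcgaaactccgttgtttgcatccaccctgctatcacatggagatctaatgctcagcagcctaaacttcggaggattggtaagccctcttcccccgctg
Oas1f, chr12:41366897-41367196, minus strand: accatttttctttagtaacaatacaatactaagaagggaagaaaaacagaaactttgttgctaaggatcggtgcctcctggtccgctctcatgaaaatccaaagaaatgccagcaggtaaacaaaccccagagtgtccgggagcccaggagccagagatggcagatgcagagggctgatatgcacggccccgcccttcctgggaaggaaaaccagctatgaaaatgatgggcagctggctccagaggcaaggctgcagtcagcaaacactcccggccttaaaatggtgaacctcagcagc
Slfn3, chr10:68519277-68519576, plus strand: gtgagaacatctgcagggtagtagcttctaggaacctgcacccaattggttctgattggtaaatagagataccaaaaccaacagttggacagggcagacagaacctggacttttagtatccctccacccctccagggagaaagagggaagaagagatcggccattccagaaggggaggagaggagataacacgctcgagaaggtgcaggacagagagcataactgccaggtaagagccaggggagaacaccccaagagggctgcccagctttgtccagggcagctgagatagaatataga
A match is a description of letters in the window.

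Mx1, a GTPase that blocks viruses, was at 0.797, 0.826, 1.01 and 4.05 CPM at E21, at 31.0, 23.3, 14.0 and 75.0 CPM at P6, and at 6.95, 9.34, 14.3 and 7.25 CPM at P18 in Wt. In Tg Mx1 was at 1.69, 0.582, 1.06 and 0.861 CPM at E21, at 30.6, 14.3, 21.8 and 19.5 CPM at P6, and at 6.11, 8.31, 8.91 and 55.0 CPM at P18. Replicate 4 of E21 Wt, of P6 Wt and of P18 Tg was the high library of its group, and P18 Tg replicate 4 was the only P18 Tg library above P6 Tg. Mx2 was at 67.9, 49.6, 63.3 and 50.3 CPM at P6 and at 24.2, 30.3, 24.8 and 104 CPM at P18 in Tg. Irf7, the regulator of the interferon response, was at 19.3, 13.6, 14.7 and 15.3 CPM at P6 and at 10.1, 11.2, 10.2 and 31.4 CPM at P18 in Tg. Usp18, which removes the ubiquitin-like ISG15 tag, was at 11.4, 7.22, 9.13 and 8.61 CPM at P6 and at 4.10, 4.28, 4.78 and 21.5 CPM at P18 in Tg. In each of these genes P18 Tg replicates 1 to 3 were below all P6 Tg libraries and replicate 4 was above them.

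The summed level of the 26 tested interferon response genes was 327, 311, 309 and 372 CPM at E21, 599, 520.1, 461 and 751 CPM at P6, and 468, 474, 482 and 474 CPM at P18 in Wt. In Tg the sum was 303, 273, 319.7 and 315 CPM at E21, 553, 421, 467 and 457 CPM at P6, and 508, 531, 556 and 899 CPM at P18. By edgeR 18 of the 26 were higher and 2 lower at P6 than at E21 in Tg, and 7 were higher and 1 lower at P18 than at P6. With every library, the 6 members rose to P6 in Tg, beside 26.5% of all genes tested. Their changes after P6 ran from -0.33 to 0.42 with adjusted p from 0.309 to 0.996 by edgeR quasi-likelihood with Benjamini-Hochberg adjustment. Without E21 Wt, P6 Wt and P18 Tg replicate 4 the change after P6 was -1.45 for Mx1 (adjusted p 0.00132), -1.11 for Mx2 (7.39e-07), -1.03 for Usp18 (0.00408), -0.66 for Oas1f (0.0398), -0.57 for Irf7 (0.0193) and -0.01 for Slfn3 (0.974) by the same edgeR test. These 3 libraries were picked because the same genes were high in them, so these p-values describe the remaining libraries and cannot test the fall. Without P18 Tg replicate 4 alone, the only 1 of the 3 in this contrast, Irf7 was not called (-0.58, adjusted p 0.0724) and neither was Slfn3 (0.962), while Mx1 (0.0303), Mx2 (0.000645), Usp18 (0.0153) and Oas1f (0.0416) were, by edgeR quasi-likelihood with Benjamini-Hochberg adjustment. Without these libraries 49 genes met the rule, of which 45 were members: Mx2, Irf7, Oas1f, Depdc7, Tpsab1 and LOC100911672 did not meet it, and of the 49 genes 35 were lower at P18 than at P6 in Tg. What set these libraries apart was not tested.

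**Figure D4:**
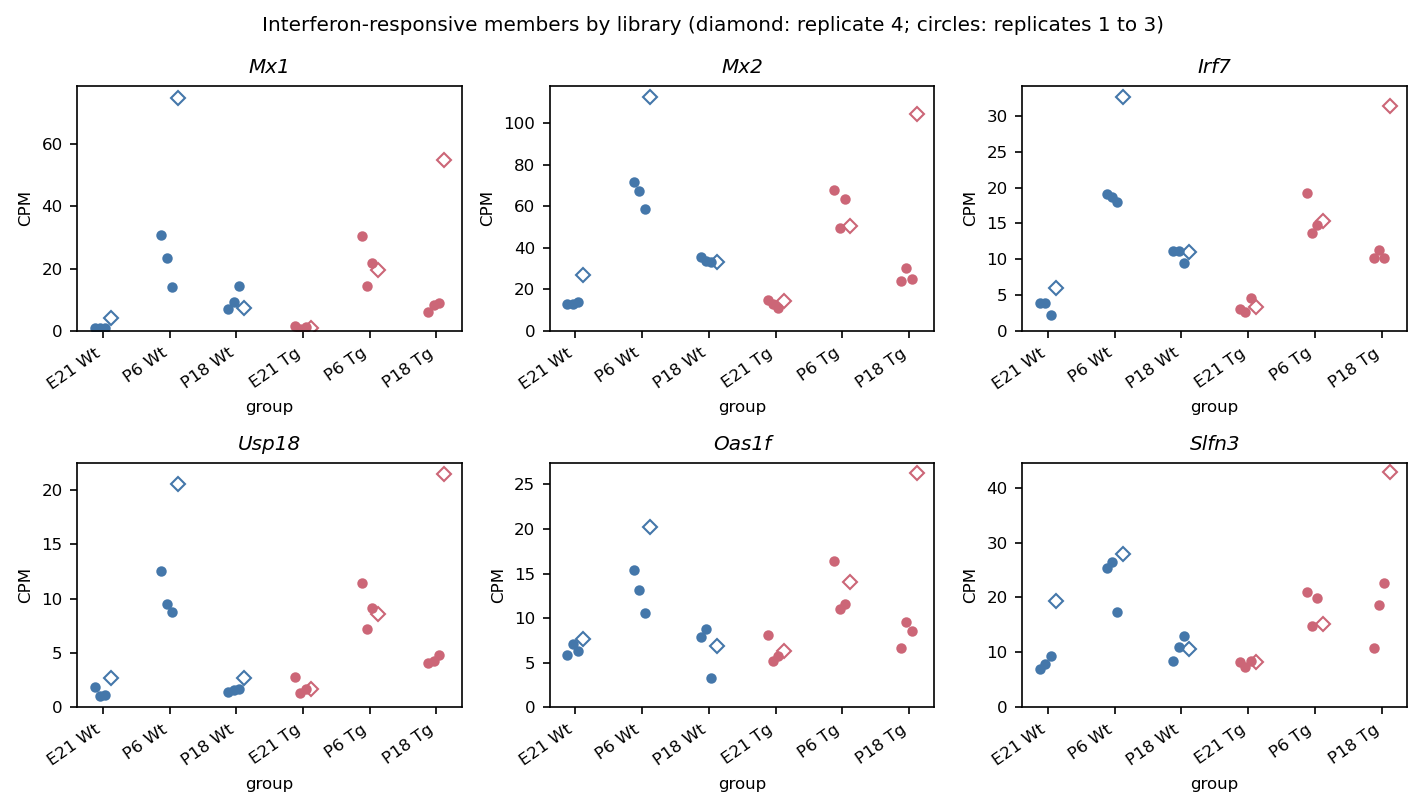
CPM of the 6 interferon-responsive members in each group, with circles for replicates 1 to 3 and a diamond for replicate 4, Wt in blue and Tg in red. The diamonds are the highest points in P6 Wt and P18 Tg, where Mx1 is at 75.0 and 55.0 CPM.

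The 8 members that are unnamed or multi-copy loci included those with the least stable values. LOC100360791, which RefSeq names as a copy of Tpt1, was at 155, 176, 86.3 and 166 CPM in the P6 Wt libraries and at 173, 163, 159 and 223 CPM in the P6 Tg libraries. Outside P6 it had 0 counts in every library except 7 counts in E21 Wt replicate 1, whereas Tpt1 itself had means of 2296, 1264 and 1283 CPM in Wt and 2160.3, 1334 and 1187 CPM in Tg. How reads were divided between these copies was not tested, and no fold is given. LOC100359583, a copy of Ptma, was at 13.5, 14.2, 84.8 and 37.9 CPM at P6 in Wt and at 63.7, 43.1, 29.9 and 21.98 CPM at P18 in Tg, and AABR07042821.1 was at 13.9, 21.8, 80.0 and 38.7 CPM and at 50.7, 25.6, 21.4 and 20.04 CPM. In Tsc22d4, Cbarp, LOC100359583 and AABR07042821.1, all among the members with no called rise in Tg, P6 Wt replicate 3 was the highest and replicate 1 the lowest of their group, and P18 Tg replicate 1 was the highest of its group. Tsc22d4 was at 12.1, 19.9, 29.9 and 27.2 CPM at P6 in Wt and at 31.2, 14.8, 13.3 and 9.46 CPM at P18 in Tg, and Cbarp was at 8.40, 12.9, 17.3 and 12.4 CPM and at 17.4, 14.8, 13.4 and 9.60 CPM. Without P6 Wt replicate 3, LOC100359583, AABR07042821.1 and Lppr3 did not meet the rule. LOC100911672 had 0 in some libraries of 4 groups and up to 23.5 CPM in P6 Tg. AABR07049887.1, LOC100912399, RGD1306271 and AABR07055333.1 rose in Tg by 1.59, 1.49, 1.56 and 0.97 and fell by 0.63, 1.17, 0.61 and 2.03 on the log2 scale.

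Set side by side with Wt, the members differed most at P18. The rule picked low P18 Wt means and high P6 Wt means, so the ratios of Tg to Wt are a description with no test. P18 is the age at which Pmp22 ran against the label, while AC130064.1 separated the labels there as at the other ages. At P18 the 4 Tg libraries were all above the 4 Wt libraries for 30 of the 51 members, beside 12.4% of all genes tested. They were all below for 0, beside 11% of all genes tested. At P6 they were all above for 11, beside 2.97%, and all below for 1, Kcnj11, beside 2.95%. At E21 they were all above for 2, Pnlip and Cdh6, beside 2.34%. For E21, P6 and P18 in turn the median log2 ratio over the members came to 0.14, 0.18 and 1.03, beside 0.01, 0.01 and 0.02 over all genes tested. The P18 median of 1.03 had an SD of 0.126 over the 4 Tg libraries (n = 4, range 0.91 to 1.22). The Tg mean was higher for 48 members at P18, beside 52.9% of all genes tested, and at least 2 times the Wt mean for 26, beside 4.95%. By role, the P18 median log2 ratio was 4.57 for neurofilaments, 1.59 for immune, pigment and lipase genes, 1.47 for neuronal and synaptic proteins, 0.99 for interferon-responsive genes (0.15 without replicate 4 of E21 Wt, P6 Wt and P18 Tg), 0.92 for matrix and peptidases, 0.92 for signalling and transcription, 0.81 for unnamed or multi-copy loci and 0.70 for channels and junctions. Scaling libraries to total counts only moved the P18 median log2 ratio of all genes to 0.25 and that of the members to 1.24.

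**Figure D5:**
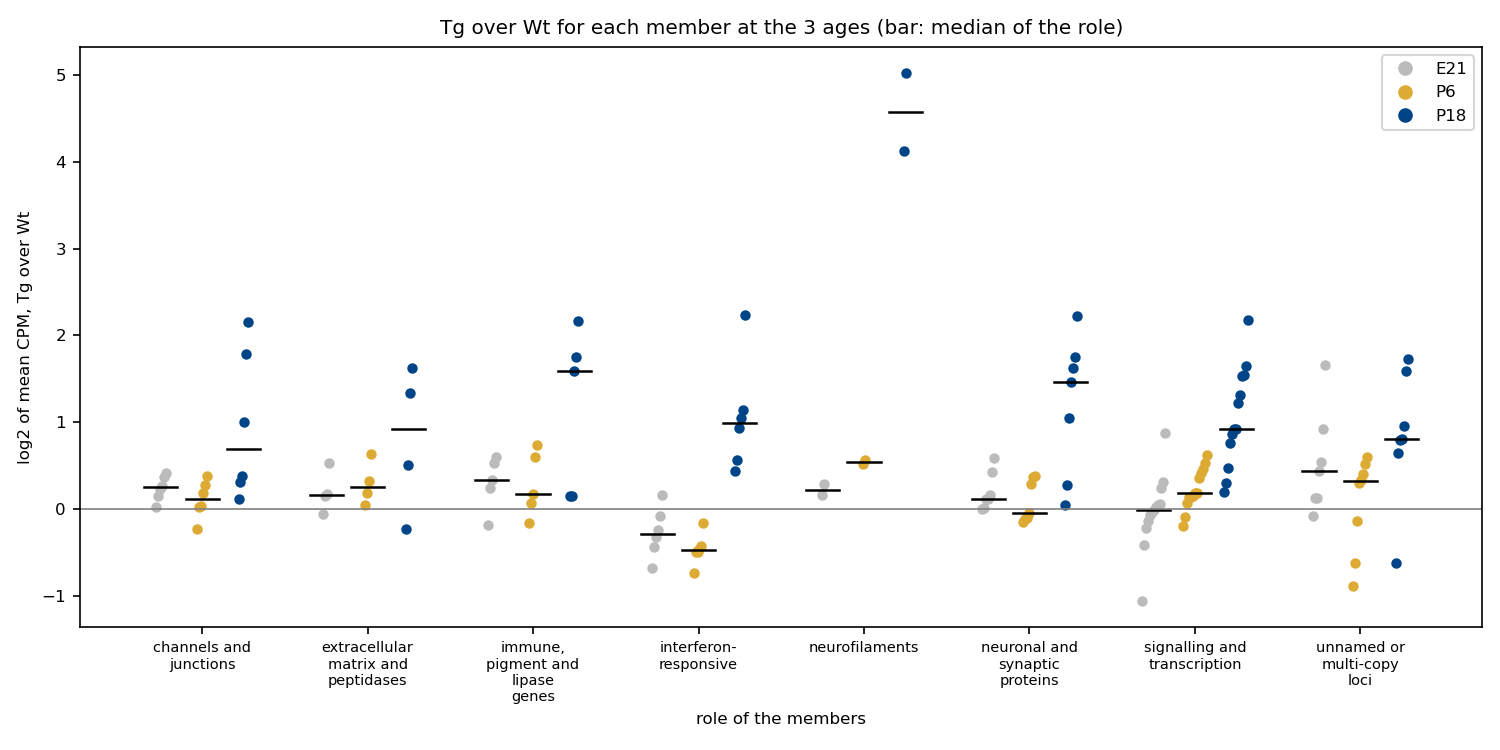
The log2 ratio of mean CPM in Tg over Wt for each member at E21 (grey), P6 (yellow) and P18 (blue), grouped by role, with bars at the median of the role. P18 points lie mostly above 0, with neurofilament values of 4.13 and 5.02, while E21 and P6 points lie on both sides of 0. At P6 the 6 interferon-responsive points are all below 0 and both neurofilament points are above it.

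Most members were on none of the gene lists, and the others were spread over several. Of 22 tested myelin proteins and partners, which include Gjc3, 20 were higher and 2 lower at P6 than at E21 in Tg, and 5 were higher and 7 lower at P18 than at P6. Of 26 transcription factors of myelination, which include Pou3f2, 5 were higher and 14 lower, and then 8 higher and 2 lower. Over all genes tested 26.5% were higher and 27.7% lower at P6 than at E21, and 17.9% were higher and 17.9% lower at P18 than at P6. Collagen processing, with Adamts3, gave 3 higher and 16 lower of 28, and then 9 higher and 9 lower. Matrix proteases, with Adam11, gave 13 higher and 19 lower of 44, and then 21 higher and 8 lower. Semaphorins, netrins, slits and ephrins, with Ephb1, gave 18 higher and 27 lower of 61, and then 14 higher and 20 lower. A list of POU and neurofilament relatives, added after the values were seen, gave 4 higher and 2 lower of 6, and then 1 higher and 2 lower. The cell cycle list held 0 members, and 33 of 33 tested genes were lower at P6 than at E21 in Tg. Immature and repair Schwann cell genes, also with 0 members, gave 2 higher and 16 lower of 21, and then 12 higher and 2 lower. The median log2 ratio of Tg to Wt at P18 was 1.52 for that list and 0.88 for the cell cycle list. It was -0.56 for the myelin list and -1.42 for the list of cholesterol synthesis and uptake.

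Of the 51 members, 45 matched a RefSeq gene and 32 had a promoter window of 300 bases, which were compared with 33469 windows of the same length. Motifs were searched on both strands. CCAAT (NF-Y) was in 37.5% of the member windows and 37.5% of all windows, CANNTG (E-box) in 78.1% and 72.1%, TGANTCA (AP-1) in 6.25% and 7.33%, and TGACGTCA (CRE) in 3.12% and 1.83%. ACAAAG (SOX) was in 28.1% and 18.8%, GGAATG (TEAD) in 6.25% and 14.2%, TATAAA (core promoter box) in 15.6% and 14.2%, and the IRF motif given above in 3.12% and 3.92%. GCGTGGGCG (EGR) was in 0% and 0.544%, and TTTGGCGC (E2F) in 0% and 0.493%. The SOX letters were in the windows of Cuedc2, Kcnj10, Lppr3, Slfn3, Cdh6, Dct, Shroom1, Oas1f and Lrrtm2. Nefl, Nefm, Depdc7, Alox15, Mx2, Dusp4, Kcnj11, Adam11, Rgs22, Tsc22d4, Fcrl2, Usp18, RGD1306271 and the unnamed loci AABR07049887.1, AABR07042821.1, AABR07055333.1, LOC100359583, LOC100912399 and LOC100911672 had no window.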

How the data were processed

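Sciatic nerve RNA was measured by sequencing in 24 libraries, with 4 biological replicates in each of 6 groups per the labels. The p-values thus measure spread between these replicates. The deposited table holds an expected count per gene and library, made by the authors with CASAVA 1.8.2, Bowtie2 2.0.2 and RSEM 1.2.29 on rn6 per the submitters' processing notes, and with Ensembl 84 and single reads of 50 bp per the paper's methods. Expected counts were rounded. edgeR 4.0.16 (with limma 3.58.1, R 4.3.3) fitted 1 quasi-likelihood model of 6 groups to 15951 genes, those whose normalized count averaged 5 or more over the libraries, with Benjamini-Hochberg adjustment and a threshold of 0.05. DESeq2 1.42.0, other scalings, count filters, fold and level limits, medians, Tg libraries alone, a replicate block and each library left out were the alternatives. No column was left out. Some genes are not reported here. Members and lists were chosen with earlier results of these data known. Roles and the melanocyte and POU and neurofilament lists were set after the values were seen. Genes named were the members highest at P6, with the largest ratios or changes, on a list or at a limit. The members listed above as outside that rule were chosen after their values were seen. Figures used Python 3.11.15 and matplotlib 3.10.9. The steps were tested on simulated data.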

Additional observations from a re-analysis of the deposited data

Results flagged for a closer look

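In 303 groups of 4 libraries, 1 for each member and group with varying values, 33 had a library far from the other 3. Chance sets apart about 1 in 20 groups. Of the 33 cases, 12 fell on replicate 4 of E21 Wt, P6 Wt or P18 Tg, the libraries high in interferon genes. They include Depdc7, Plekha1, Rgs22 and Kif26b, which are not interferon-responsive members. Members share libraries, so the cases are not independent.

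In P18 Tg, replicate 4 was high for Mx1 (55.0 CPM), Mx2 (104 CPM), Irf7 (31.4 CPM), Oas1f (26.3 CPM) and Usp18 (21.5 CPM), and replicate 3 was high for Pnlip (10.2 CPM). In P6 Wt, replicate 4 was high for Irf7 (32.7 CPM), Rgs22 (33.8 CPM) and Kif26b (28.1 CPM), and replicate 1 was low for Pou3f2 (13.2 CPM). In E21 Wt, replicate 4 was high for Mx1 (4.05 CPM) and Mx2 (26.9 CPM) and low for Depdc7 (46.9 CPM) and Plekha1 (281 CPM). Also in E21 Wt, replicate 1 was high for LOC100360791 (0.372 CPM), and replicate 2 was high for Tpsab1 (14.3 CPM) and low for Lrrtm2 (4.90 CPM).

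In P18 Wt, replicate 3 was high for Ibsp (17.3 CPM), Ryr3 (9.57 CPM) and AABR07055333.1 (6.62 CPM) and low for Dct (0.118 CPM) and Irf7 (9.46 CPM). Also in P18 Wt, replicate 1 was high for Cdh6 (10.6 CPM) and Cpm (16.7 CPM), and replicate 2 was high for Ephb1 (23.0 CPM). In E21 Tg, replicate 1 was high for Pnlip (14.5 CPM) and low for Cbarp (4.51 CPM), and replicate 4 was low for Adam11 (0.492 CPM). In P6 Tg, replicate 1 was low for RGD1306271 (53.6 CPM), Tpsab1 (22.2 CPM) and Rgs22 (24.7 CPM), replicate 2 was high for Plekha1 (796 CPM), and replicate 3 was high for Slain1 (65.4 CPM).

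From P6 to P18 all Tg libraries of Nefl moved up, by a log2 of 1.52, and all Wt libraries moved down. The difference was not tested.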

How the results depend on the processing

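The counts of members kept their size under most alternatives. The number higher at P6 than at E21 in Tg was 46, and that lower at P18 than at P6 in Tg 31. They were 46 and 32 with DESeq2, 46 and 31 with RLE size factors, 46 and 30 with no count filter, 46 and 31 with a mean count of at least 20, and 46 and 30 with edgeR on Tg libraries only. With total counts only, which gave 64 members, they were 58 and 38, and the median log2 ratio of Tg to Wt at P18 over the 51 members was 1.24. RLE size factors gave 52 members and a median log2 ratio of 1.01 over the 51. With a fold limit of 1.5 times there were 147 members, of which 130 rose and 84 fell in Tg, with a median log2 ratio of 0.56. Of these, 55 met the rule in Tg with its limit also set to 1.5 times. With 3 times there were 20 members, of which 20 rose and 14 fell in Tg, with a median log2 ratio of 1.62, and 4 met the rule in Tg with its limit also at 3 times. The rises, falls and ratios follow from the wider or narrower choice of members. The counts meeting the rule in Tg changed with the limit for members and the limit in Tg at once. Level limits of 5 and 20 CPM gave 74 and 39 members, of which 18 and 13 met the rule in Tg, and group medians gave 52 and 19.

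With replicate number as a replicate block the counts were 46 and 31, and the change after P6 in Tg was -0.12 for Irf7, -0.60 for Mx1 in place of -0.13, -0.54 for Mx2 in place of -0.33 and -0.34 for Usp18 in place of -0.07. Over the 8 pairs of same-numbered Tg libraries at neighbouring ages r ran from -0.148 to 0.0998, and Wt pairs were not checked.

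With each library left out in turn, the number of members ran from 43 to 57, those rising from 39 to 49, those falling from 28 to 35, those meeting the rule in Tg from 13 to 16, and the median log2 ratio at P18 from 0.99 to 1.17, the last without P18 Wt replicate 1. The log2 change after P6 in Tg ran from -1.46 to 0.15 for Mx1, -0.67 to 0.16 for Oas1f, -1.05 to 0.16 for Usp18, -0.58 to 0.17 for Irf7, -0.022 to 0.66 for Slfn3, -0.63 to 0.019 for Tsc22d4 and -0.17 to 0.37 for AABR07042821.1. The rise of LOC100359583 ran from -0.085 to 0.90. The change of Irf7 after P6, 0.00 as reported, was -0.0078 with DESeq2, -0.0069 with RLE size factors and -0.033 with total counts only. Plekha1 after P6 was called by DESeq2 (-0.20) and with total counts only (-0.22), and without P18 Tg replicate 4 (-0.24). The cause was not tested.

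Alternatives chosen after seeing the data: without clone and LOC names 43 members remained, of which 41 rose and 26 fell, and 13 met the rule in Tg. The Tg counts with each Wt library left out were also added then. With total counts only and the members kept, 46 rose and 32 fell. Without the 3 libraries high in interferon genes, 46 rose, 35 fell and 13 met the rule in Tg, and the change after P6 was -0.57 for Irf7 (called, while -0.58 without P18 Tg replicate 4 alone was not), 0.031 for Tsc22d4 and -0.012 for Slfn3.

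With 4 libraries a group, members near the fold or level limit enter or leave the list with a single library. Low counts at E21 limit the size of the rise for genes such as Epyc and Ephb1. Loci with near-identical copies share reads in unknown proportion. The P18 contrast between genotypes cannot separate cell number from RNA per cell. Pmp22 at P18 ran against the label, while AC130064.1 separated the labels at every age.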

Other observations

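The same rule applied to the Tg means was met by 24 genes that were not members, chosen after their values were seen. Of these, 10 were on the list of cholesterol synthesis and uptake, among them Hmgcs1. Hmgcs1 had means of 338, 1681 and 699 CPM at E21, P6 and P18 in Tg and of 359, 2156 and 3193 CPM in Wt. Over the 22 genes with a ratio, the median log2 ratio of Tg to Wt at P18 was -1.48, and 20 were below the Wt mean. These genes were chosen on low P18 means in Tg with the rule not met in Wt. Their ratio is thus a description with no test, as it is for the members. Over the 25 tested genes of the cholesterol list, whether or not they met the rule, the median log2 ratio at P18 was -1.42. How far the choice sets the direction was not tested.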
